A study of Homo sapiens with 5 samples.

Results

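The syndecans and glypicans are the main heparan sulfate proteoglycans of the cell surface, and 9 of their genes were followed here, the syndecans SDC1, SDC2, SDC3 and SDC4 and the glypicans GPC1, GPC2, GPC3, GPC4 and GPC6. They are 9 of 20220 RefSeq gene entries with usable values. The genes were chosen by family name, but the families were singled out from values of the same contrasts, SDC4 being already known to be called in treated cells. Their levels, ratios and calls against control are therefore given as a description and were not tested again. RNA was sequenced from HEK 293T, an established line derived from human embryonic kidney in which the large T antigen of SV40 is expressed. The control group was 2 libraries of cells without drug, and the treated group 2 libraries of cells given 1.0 µM 5-aza-CdR for 3 days. This drug, decitabine, is a deoxycytidine analogue that traps DNA methyltransferases and so lowers DNA methylation. The recovery group was 1 library of cells that had the same treatment and were then cultured for 30 days without the drug. The authors deposited 1 FPKM value (fragments per kilobase of transcript, scaled to sequencing depth) for each gene and group, so no spread between libraries can be shown beside any value below.

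Syndecans are single-pass membrane proteins with a short cytoplasmic tail that binds scaffold and signalling proteins, whereas glypicans are held to the outer leaflet of the membrane by a lipid anchor. Both carry heparan sulfate, a sulfated sugar chain that is built on the core protein in the Golgi and binds growth factors, morphogens and matrix proteins. Through these chains syndecans take part in cell adhesion and in growth factor signalling, and glypicans tune WNT, hedgehog, BMP and FGF signalling during development, the kidney included.

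The drug acts on DNA methylation, which in human cells lies mainly on the CpG dinucleotide, so the CpG content of the promoters was read from RefSeq (GRCh38.p14). A window of the 250 bases before an annotated start was found for 7 of the 9 genes, with a pair of windows for SDC1. The 4 sequences below belong to SDC4 and GPC4, whose treated values were the furthest above control, GPC6, whose value was the furthest below, and GPC1, whose value was close to control. Capitals mark each CpG. The SDC4 window lies at chr20:45348425-45348674 (minus strand), that of GPC4 at chrX:133415490-133415739 (minus strand), that of GPC6 at chr13:93226557-93226806 (plus strand) and that of GPC1 at chr2:240435413-240435662 (plus strand), each printed 5′ to 3′ in the direction of the gene.
SDC4: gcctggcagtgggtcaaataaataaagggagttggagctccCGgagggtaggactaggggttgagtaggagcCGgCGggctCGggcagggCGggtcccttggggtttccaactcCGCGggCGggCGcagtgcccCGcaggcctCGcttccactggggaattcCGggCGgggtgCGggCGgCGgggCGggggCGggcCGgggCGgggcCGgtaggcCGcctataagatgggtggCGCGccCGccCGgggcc
GPC4: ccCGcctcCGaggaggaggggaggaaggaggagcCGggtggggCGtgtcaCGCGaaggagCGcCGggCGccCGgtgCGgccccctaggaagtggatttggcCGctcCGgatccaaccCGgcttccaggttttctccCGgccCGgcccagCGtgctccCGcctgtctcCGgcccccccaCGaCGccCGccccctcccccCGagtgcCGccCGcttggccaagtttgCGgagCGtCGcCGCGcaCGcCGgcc
GPC6: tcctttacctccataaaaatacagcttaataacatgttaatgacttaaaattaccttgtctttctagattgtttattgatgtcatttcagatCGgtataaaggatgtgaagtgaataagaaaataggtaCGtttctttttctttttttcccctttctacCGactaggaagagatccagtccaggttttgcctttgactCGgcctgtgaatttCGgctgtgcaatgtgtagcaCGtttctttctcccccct
GPC1: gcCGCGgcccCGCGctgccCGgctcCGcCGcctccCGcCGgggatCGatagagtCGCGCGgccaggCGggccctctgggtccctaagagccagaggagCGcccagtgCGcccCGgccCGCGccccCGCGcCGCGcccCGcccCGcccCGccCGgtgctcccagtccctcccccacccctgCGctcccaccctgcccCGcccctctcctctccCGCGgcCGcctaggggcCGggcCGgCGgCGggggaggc

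The GPC6 window differed in make-up from the other 3, with 6 CpG and a G and C content of 37.6%. The SDC4 window held 26 CpG at 73.6% G and C, the GPC4 window 32 CpG at 76.0%, and the GPC1 window 36 CpG at 84.0%. The median over 35116 RefSeq promoter windows of this length was 11 CpG, and 17.7% of windows held more CpG than SDC4 and 8.15% more than GPC4. For GPC6, 58.9% held more. The SDC3 window held 37 CpG, that of GPC2 19, and the SDC1 windows 21 and 23. GPC1 and SDC3, with the most CpG of these windows, had treated to control ratios of 1.02 and 1.32. GPC4 and SDC4, next in CpG number, had ratios of 3.78 and 3.83. SDC2 and GPC3 had no window, and a link between CpG number and ratio was not tested. The motif GGGCGG, searched on both strands, was in 7 of the 8 windows of these genes (8 matches in SDC4, 2 in GPC4, 4 in GPC1 and 0 in GPC6) and in 42.6% of all windows. TATAA, also on both strands and with no overlap with GGGCGG, was in 2 of the 8 windows, those of SDC4 and GPC6, and in 18.9% of all. No methylation value for these promoters was analysed here. In the authors' deposited table a mark headed DNA methylation stands on 14.1% of all entries and on 0 of the 9 genes, and a mark headed expression stands on 12.8% of entries and on 0 of the 9.

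Depth per library is not given with FPKM values, but the commonest ratio between groups among low values fits 1 fragment against 1 fragment. By that estimate the depth behind a value was 1.32 times the control's in the treated group and 0.652 times the control's in the recovery group. The commonest ratio was shared by 86 of 12366 entries above 0 in treated and control, and by 98 of 12095 in recovery and control. The labelled cell type was checked with 10 genes often described in HEK 293T, of which 9 were in the table. VIM (316, 181 and 246 FPKM in the control, treated and recovery groups), KRT18 (231, 418 and 214 FPKM) and NEFL (28.9, 22.2 and 30.6 FPKM) were present in every group. IRS4 was at 0, 2.13 and 28.0 FPKM and called higher in both comparisons, NEFM was at 0, 4.79 and 0.0924 FPKM and called higher with treatment (each call at q = 0.0147 in the authors' deposited table), and PAX2 was at 0, 0.146 and 0 FPKM. EYA1 was at 3.77, 1.58 and 3.09 FPKM, LHX1 at 1.83, 0.390 and 0.966 FPKM and INA at 0.244, 3.79 and 0.562 FPKM. The VIM and KRT18 entries span 2.50 and 13.8 times the length of those genes and can hold fragments of neighbours. The IRS4 and EYA1 entries span only 0.234 and 0.470 times the length of theirs. Summed markers of other cell types lay below VIM, KRT18 and NEFL in every group. In the control, treated and recovery groups the 6 blood markers summed to 0, 3.33 and 3.43 FPKM. The 5 endothelial markers summed to 0.0621, 2.24 and 0.758 FPKM and the 6 fibroblast markers in the table to 8.54, 5.78 and 12.3 FPKM. CD3E, HBB, CDH5 and DCN were at 0 in every group. The highest fibroblast markers in control were COL3A1 (4.10, 2.36 and 7.78 FPKM) and LUM (2.42, 0.732 and 1.48 FPKM). The blood and endothelial sums were lowest in control, and the part of other cells in the values below was not tested.

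In cells without drug, SDC2 and SDC4 were the highest of the 9 genes. SDC2, the syndecan typical of mesenchymal cells, stood at 36.1 FPKM and SDC4, the widely expressed syndecan of focal adhesions, at 24.6 FPKM. Then came GPC3 (8.69 FPKM), GPC6 (7.48 FPKM), SDC1 (7.16 FPKM), GPC1 (6.48 FPKM) and SDC3 (5.27 FPKM), whose values lie close together. GPC4 was at 3.58 FPKM and GPC2 lowest at 0.715 FPKM. FPKM is scaled to transcript length, so these levels can be compared between genes, but with no spread it cannot be said which neighbours in this order differ. The order was altered in treated cells, where SDC4 passed SDC2, GPC4 moved from place 8 to place 4 and GPC6 from place 4 to place 8. In recovery SDC4 (36.3 FPKM) and SDC2 (34.5 FPKM) were nearly level, and GPC4 and GPC6 kept the places they had in treated cells.

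**Figure D1:**
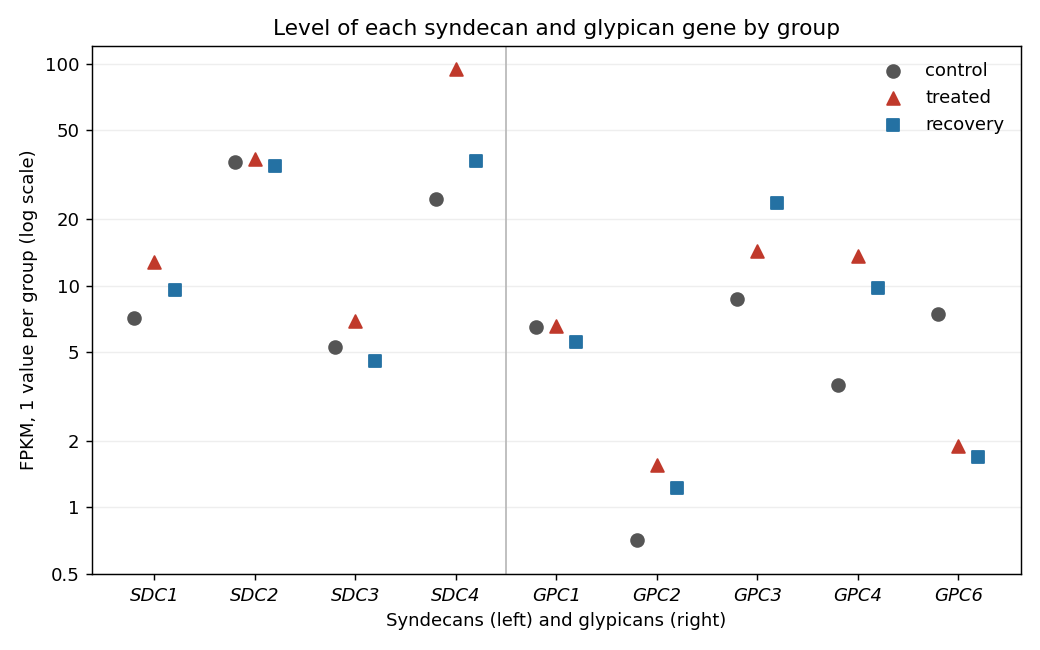
FPKM (log scale) of the 4 syndecan and 5 glypican genes, 1 point per group as deposited by the authors with no error bar available: circles control, triangles treated, squares recovery. SDC4 stands at 94.2 FPKM in treated cells against 24.6 in control, and GPC6 lies at 1.89 and 1.69 in treated and recovery against 7.48 in control.

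SDC4 was the only one of the 9 genes that the authors called in either comparison. SDC4 (NM_002999, chromosome 20, 43953929 to 43977064 in the coordinates of the deposited table, taken as hg19) was at 24.6 FPKM without drug, 94.2 FPKM with the drug and 36.3 FPKM after its withdrawal. The treated value was thus well above both others, and the recovery value lay nearer to control. SDC4 rose 3.83-fold with treatment, with q = 0.0147 in the authors' deposited table, which is the lowest q in that column and is shared by 113 entries. Calls at q under 0.05 were rare over the table, 1.08% of 11256 entries higher and 0.275% lower, counting as tested those with q under 1. Of the 9 genes, 8 were tested in this sense, and 1 was called higher and 0 lower. Of the 122 entries called higher, 16 had a control above 0 and the others were listed at 0 in control. Among those 16, SDC4 had the ratio in place 11, and 5 of them reached a higher treated level. Over the 10202 entries of 1 FPKM or more in every group, 1.59% had a larger treated to control ratio. In bulk RNA a higher level in each cell and a larger share of cells with the transcript cannot be told apart.

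In the recovery group SDC4 was at 1.48 times control and at 0.385 times its treated level, with q = 0.939 against control in the authors' deposited table. No test of recovery against treated cells was deposited. The SDC4 pattern was set beside those of 16500 protein-coding entries by the distance in log2(FPKM + 1) over the 3 groups. The nearest were HMGB3, a chromatin protein (25.9, 80.3 and 32.8 FPKM in the control, treated and recovery groups, distance 0.28), and CAVIN1, a coat protein of caveolae (23.0, 84.6 and 28.8 FPKM, distance 0.37). The authors' deposited table calls both higher with treatment at q = 0.0147. ZNF593 (27.3, 68.8 and 41.2 FPKM), the actin-bundling gene FSCN1 (27.9, 67.6 and 35.3 FPKM) and the glucose transporter gene SLC2A3 (32.5, 67.3 and 35.7 FPKM) followed at distances of 0.50, 0.50 and 0.62, without a call. Only 3 group values enter this distance, so likeness here means a similar level and a similar ratio.

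The other syndecans stood closer to control. SDC1 (NM_001006946, chromosome 2, 20400558 to 20425194), the syndecan of epithelia and plasma cells, was at 7.16, 12.8 and 9.55 FPKM in the control, treated and recovery groups. Its treated to control ratio of 1.78 had q = 0.927 in the authors' deposited table. SDC3 (NM_014654, chromosome 1, 31342313 to 31381480), known mostly from the nervous system, was at 5.27, 6.95 and 4.56 FPKM in the same order, ratios of 1.32 and 0.865 to control. SDC2 (NM_002998, chromosome 8, 97505882 to 97624037) was the most even of the family, at 36.1, 37.2 and 34.5 FPKM, ratios of 1.03 and 0.956 with q = 0.998 in both comparisons in the authors' deposited table. All 4 syndecans lay above control in treated cells, SDC2 at a ratio of 1.03, and in recovery SDC1 and SDC4 lay above control and SDC2 and SDC3 below.

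The make-up of the syndecan transcripts therefore turned on SDC4. The 4 genes summed to 73.1, 151 and 84.8 FPKM in the control, treated and recovery groups. SDC2 made up 49.4% of the control sum and SDC4 33.6%. In treated cells the shares were 24.6% for SDC2 and 62.3% for SDC4, and in recovery 40.6% and 42.7%. Without SDC4 in any group, a sum added after the data were seen, the other 3 came to 48.5, 56.9 and 48.6 FPKM. SDC1 held between 8.45% and 11.3% of the sum in every group and SDC3 between 4.6% and 7.21%.

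**Figure D2:**
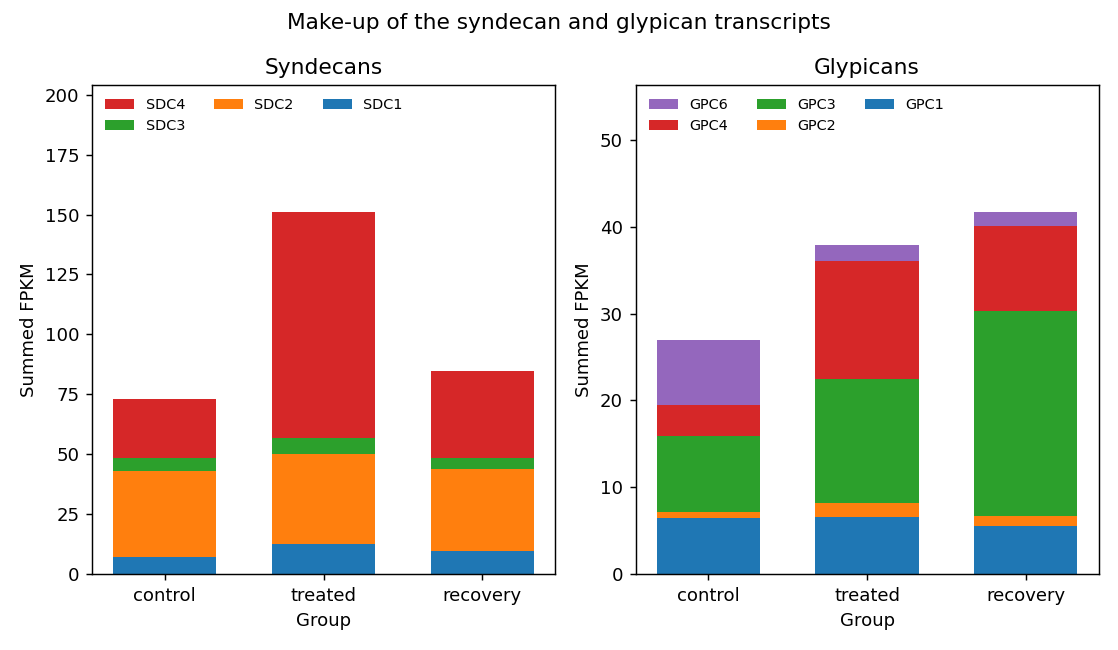
Stacked bars of FPKM (1 value per gene and group, no error available) for the syndecans, left, and the glypicans, right, in control, treated and recovery groups; the 2 vertical axes differ in scale and both start at 0. SDC4 takes 62.3% of the syndecan sum in treated cells, and GPC6 shrinks from 27.8% to 4.98% and 4.04% of the glypican sum. The glypican bars and sum leave out GPC5.

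None of the 5 glypicans was called, and their values pointed in different ways. GPC4 (NM_001448, X chromosome, 132435064 to 132549205), a glypican known from kidney tubule and brain and from neuronal synapse formation, was at 3.58 FPKM without drug, 13.6 FPKM with it and 9.77 FPKM after withdrawal. Both later values were thus above control, at ratios of 3.78 and 2.73. The authors' deposited table gave q = 0.397 for treated and q = 0.770 for recovery. Only 1.63% of the entries of 1 FPKM or more in every group had a larger treated to control ratio, a place next to that of SDC4, yet GPC4 did not pass and SDC4 did.

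GPC3 (NM_001164617, X chromosome, 132669776 to 133119673) is the glypican mutated in the Simpson-Golabi-Behmel overgrowth syndrome and is known from embryonic kidney, Wilms tumour and liver cancer. It was at 8.69 FPKM without drug, 14.3 FPKM with it and 23.5 FPKM after withdrawal. GPC3 was the only one of the 9 genes with its highest value in recovery, 2.70 times control and 1.64 times treated, with q = 0.553 for recovery and q = 0.939 for treated in the authors' deposited table. GPC4 and GPC3 are neighbours on the X chromosome, 120570 bases apart in the deposited coordinates with 0 other entries between them. Both lay above control in both groups, GPC4 more so in treated cells. The 5 protein-coding genes nearest to GPC3 in pattern were TTC27, VCF2, MED19, GALT and CLK3, at distances from 0.16 to 0.24; TTC27 was at 9.13, 15.1 and 21.4 FPKM and MED19, a subunit of the Mediator complex, at 9.45, 14.8 and 26.8 FPKM. None of the 5 was called in the authors' deposited table.

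GPC6 (NM_005708, chromosome 13, 93879078 to 95060273), a glypican whose loss shortens the limbs in omodysplasia, was the only one of the 9 below control in treated cells. It was at 7.48 FPKM without drug, 1.89 FPKM with it and 1.69 FPKM after withdrawal. Both later values were close to each other, and control was 3.96 and 4.44 times as high. The authors' deposited table gave q = 0.336 for treated and q = 0.272 for recovery, so neither difference passed. Of the entries of 1 FPKM or more in every group, 0.970% had a smaller treated ratio and 0.382% a smaller recovery ratio. GPC5, the glypican gene next to GPC6 on chromosome 13 and not among the 9, ends 359590 bases before it with 0 entries between. It was at 5.94, 3.71 and 11.5 FPKM in the control, treated and recovery groups, ratios of 0.625 and 1.94, without a call. In recovery these neighbours thus stood on opposite sides of control, unlike GPC3 and GPC4.

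GPC1 and GPC2 are the remaining glypicans of the 9 genes. GPC1 (NM_002081, chromosome 2, 241375115 to 241407495), a broadly expressed glypican that modulates FGF signalling, was at 6.48, 6.59 and 5.54 FPKM in the control, treated and recovery groups, ratios of 1.02 and 0.854. GPC2 (NM_152742, chromosome 7, 99767229 to 99774990), a glypican of the developing nervous system and of neuroblastoma, was at 0.715, 1.56 and 1.22 FPKM. Its ratios of 2.19 and 1.70 rest on the lowest levels of the 9 genes, and its q was 1 in both comparisons in the authors' deposited table, so it may not have been tested. Together the 5 glypicans summed to 27.0, 37.9 and 41.7 FPKM in the control, treated and recovery groups. GPC5, at 5.94, 3.71 and 11.5 FPKM in the same order, is not in these sums. GPC3 was the highest glypican in each group and made up 32.2%, 37.7% and 56.3% of the sum. GPC6 made up 27.8%, 4.98% and 4.04%, and GPC4 13.3%, 35.8% and 23.4%. The syndecan sum was 2.71 times this glypican sum in control, 3.99 times in treated cells and 2.03 times in recovery. Each of these glypican shares and of these ratios would be lower with GPC5 added.

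**Figure D3:**
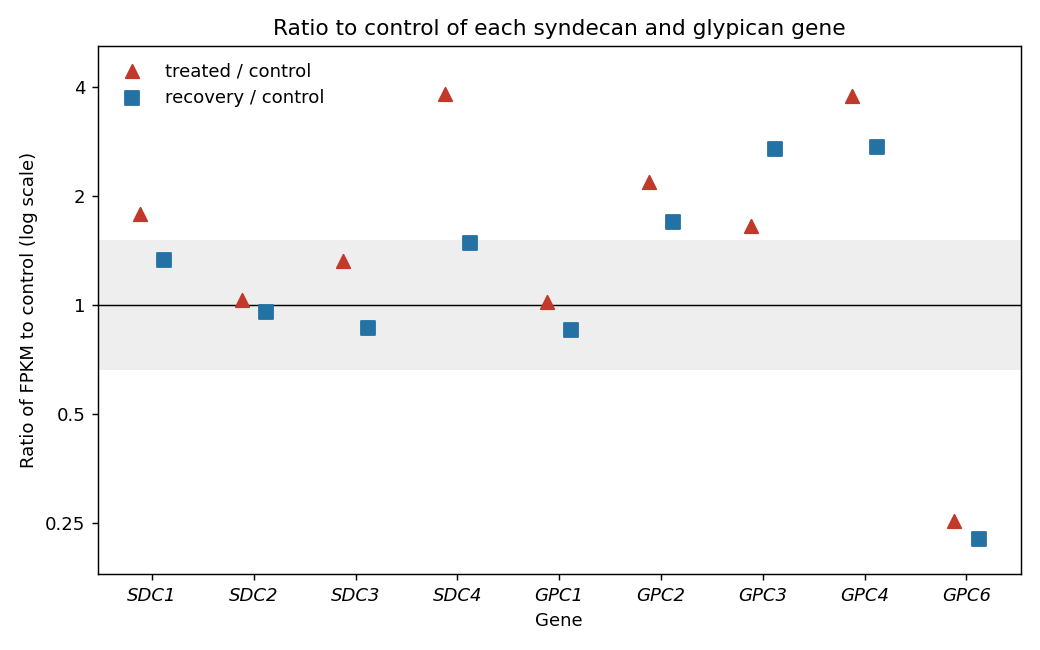
Ratio of FPKM to control (log scale) for each gene, triangles treated and squares recovery, both against the same control value; the grey band spans less than 1.5-fold in either direction and no error is available. SDC4 and GPC4 lie highest in treated cells at 3.83 and 3.78, and GPC6 lies lowest at 0.252 and 0.225. SDC2, SDC3 and GPC1 stay in the band in both comparisons.

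Ratios of 1.5-fold in either direction were common among all genes. In treated cells 5 of the 9 genes were at least 1.5-fold above control (SDC1, SDC4, GPC2, GPC3 and GPC4) and 1 at least 1.5-fold below (GPC6). Of all entries above 0 in both groups, 23.7% were that far above and 22.4% that far below, and of entries of 1 FPKM or more in every group, as 8 of the 9 genes are, 17.9% and 20.4%. In recovery 3 of the 9 were that far above control (GPC2, GPC3 and GPC4) and 1 below (GPC6). The shares of all entries were then 22.2% above and 19.1% below, and among entries of 1 FPKM or more 16.6% and 16.8%. The median log2 change of the 9 genes, as log2(FPKM + 1), was 0.58 in treated cells and 0.37 in recovery, beside 0.00 over all entries in both and -0.04 over those of 1 FPKM or more. In recovery 0 of the 9 genes were called, beside 0.895% of 11174 tested entries called higher and 0.447% called lower. Both comparisons use the same control values, so a low or high control value moves both ratios of a gene together. The recovery group is 1 library, and the sources used here do not say how the authors estimated its spread.

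None of the enzymes with an entry that make the heparan sulfate chain was called, and some were listed at 0. GLCE and HS6ST2 had no entry of their own. The 3 lists for the linkage sugars, the chain polymerases and the chain modification had 26 genes in the table. Of these, 17 had q under 1 in each comparison, and 0 were called. Of all tested entries 1.08% were called higher and 0.275% lower in treated cells, and 0.895% and 0.447% in recovery. At those shares a list of this size, or of the size of those that follow, would hold few calls or none. HS3ST2 and HS3ST5 were at 0 in every group. The median log2 change of the 26 genes was 0.00 in treated cells and -0.03 in recovery, and the lowest q in the authors' deposited table were 0.914 and 0.839. Here and in the lists that follow, the highest and lowest ratios are those among genes of 1 FPKM or more in every group. That limit leaves out low genes, some with wider ratios. In the control, treated and recovery groups EXTL1 was at 1.89, 0.331 and 0.149 FPKM and HS3ST1 at 2.10, 0.874 and 0.161 FPKM. CHST7 was at 0.0814, 2.96 and 5.24 FPKM and MMP2 at 0.116, 1.46 and 1.79 FPKM in the same order. None of these had a call, and they were named after their values were seen. Among the linkage genes, PXYLP1, the xylose phosphatase, had the highest treated ratio (1.45) and B3GALT6, a galactosyltransferase, the lowest (0.729), while in recovery B4GALT7, which adds the first galactose, was highest (1.34) and the xylosyltransferase gene XYLT2 lowest (0.795). Its paralogue XYLT1 was at 0, 0.107 and 0.590 FPKM. Both subunits of the polymerase were present. EXT2 was at 66.0, 75.7 and 66.1 FPKM and EXT1 at 14.6, 23.6 and 10.6 FPKM in the control, treated and recovery groups, so that EXT1 had the highest treated ratio of its list (1.62) and the lowest in recovery (0.726). EXTL2 had the lowest treated ratio (0.850) and the highest in recovery (1.33).

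Among the modifying enzymes NDST1, the main N-deacetylase and N-sulfotransferase, was at 10.2, 16.5 and 11.1 FPKM and had the highest treated ratio among genes of 1 FPKM or more in every group (1.62). The 3-O-sulfotransferase gene HS3ST3B1 had the lowest (0.554). In recovery the 6-O-sulfotransferase gene HS6ST1 was highest at 2.71 times control and NDST2 lowest at 0.735. Of the 14 genes of this list in the table, 4 were listed at 0 in control. Of the genes that supply sugar nucleotides and sulfate, 0 of 9 were called; UGP2 (1.72) and SLC35B3 (0.550) marked the ends among genes of 1 FPKM or more in every group in treated cells and the sulfate donor synthase gene PAPSS1 (1.97) and SLC35D2 (0.569) those in recovery.

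Genes that trim or degrade the chain also had 0 calls among 11 in the table. Heparanase, HPSE, which cuts heparan sulfate at the cell surface and in the matrix, was at 2.93, 7.27 and 3.73 FPKM, the highest treated ratio of the list among genes of 1 FPKM or more in every group (2.48, q = 0.830 in the authors' deposited table). NAGLU was lowest (0.695) with the same limit. In recovery the lysosomal glucuronidase gene GUSB was highest (2.54) and GLB1 lowest (0.535). The endosulfatase SULF2, which removes 6-O-sulfate outside the cell, was at 21.1, 31.1 and 36.9 FPKM and its paralogue SULF1 at 3.60, 0.996 and 2.12 FPKM, a treated ratio of 0.277 that lies under that of NAGLU but falls below the limit; this pair was named after its values were seen.

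Shedding and release had 1 call among 12 genes in the table. NOTUM, a secreted carboxylesterase that inactivates WNT proteins, binds glypicans and was first described as a factor releasing them from the membrane, was listed at 0 without drug, at 4.93 FPKM with it and at 0.985 FPKM after withdrawal. NOTUM rose with treatment (q = 0.0147 in the authors' deposited table), and its q in recovery was 1. The syndecan sheddases had no call, with ADAM10 and ADAM17, MMP14 and the others between 0 and 24.7 FPKM in control. TIMP3, an inhibitor of these proteases whose entry spans 8.90 times the gene's length and so can hold a neighbour's fragments, had the highest ratios among genes of 1 FPKM or more in every group (1.78 and 1.76), and PCSK6 (0.663) in treated and PCSK7 (0.694) in recovery the lowest. Of the proteins that bind syndecan tails or act with them at adhesions, 0 of 15 were called. The RAC activator TIAM1 had, with the same limit, the highest ratios (2.08 and 1.82) and PRKCA, the protein kinase C that SDC4 activates, the lowest (0.646 and 0.524).

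Among the other proteoglycans 1 of 10 was called, in recovery only. SRGN, serglycin, the secretory granule proteoglycan of blood cells, was listed at 0 without drug, at 1.86 FPKM with it and at 6.20 FPKM after withdrawal. SRGN was called higher in recovery with q = 0.0239 in the authors' deposited table (q = 0.591 for treated), and the difference between the groups was not tested. Of the 6 blood markers CD68, which also marks lysosomes of other cells, was at 0, 2.71 and 3.43 FPKM and called in recovery, PTPRC at 0, 0.413 and 0 FPKM, and CD3E and HBB at 0 throughout; their part in the SRGN value was not tested. Among its genes of 1 FPKM or more in every group, CD44 had the highest treated ratio (1.61) and NRP1, a semaphorin and VEGF coreceptor, the lowest (0.384), while in recovery GPC5 was highest and the TGF beta coreceptor gene TGFBR3 lowest (0.567).

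**Figure D4:**
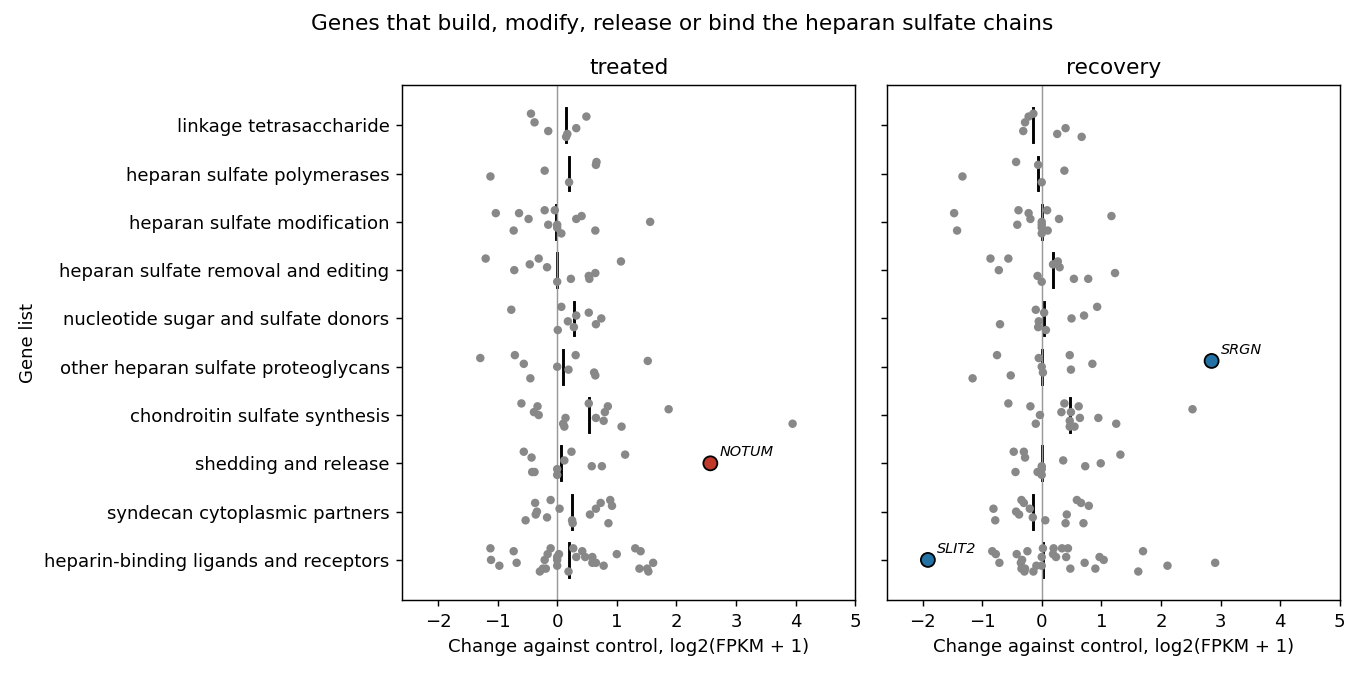
Change against control in log2(FPKM + 1) of each gene of 10 lists, treated left and recovery right, 1 point per gene, with a black bar at the median of a list; coloured and named points are those the authors called at q under 0.05. Over the 129 genes 1 is called in treated cells, NOTUM, and 2 in recovery, SRGN (higher) and SLIT2 (lower).

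Over all 10 lists, 129 genes were in the table. In treated cells 103 of them had q under 1 and 1 was called (0.971%), and in recovery 102 had q under 1 and 2 were called (1.96%). These shares can be read against the 1.08% higher and 0.275% lower, and the 0.895% higher and 0.447% lower, of all tested entries. Within 10 kb of the 9 genes the lncRNA table has 2 loci, both beside SDC3, and both were listed at 0 in every group.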

How the data were processed

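RNA was sequenced from 5 libraries (2 control, 2 treated, 1 recovery), grouped by sample titles; per the labels, rRNA was depleted and libraries were directional. The authors deposited FPKM, 1 value per gene and group, and q-values (adjusted p-values) against control, per the file headers; Cufflinks and Cuffdiff are named in the submitters' processing notes, with the builds hg19 and mm9, while the sources used here do not give aligner, settings or depth. Because libraries were combined, no test per gene was added: a gene is called where the authors' q was under 0.05, and its direction is that of the FPKM. Entries with shifted cells were left out (1 of 20221 RefSeq and 2 of 21627 lncRNA entries); 0 value columns lacked a group. Symbols came from NCBI's RefSeq table (19665 of 20220 entries matched; GRCh38.p14, names and promoters only). Nothing says whether libraries of a group came from separate cultures, so the spread behind the q-values may be technical.

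Ratios are of FPKM as deposited; log2 changes use a pseudocount of 1 FPKM, which understates changes of low genes, and no ratio was taken against 0. The 9 genes, the 10 pathway lists (144 genes, 15 of them without an entry of their own) and the marker lists were chosen with earlier results of these data known; 1 marker gene is not reported here. Named genes are the 9, every called list gene, the highest and lowest ratio of each list among genes of 1 FPKM or more in every group, and the 5 nearest patterns. Alternatives were 2 other scalings, pseudocounts, filters and q thresholds. Calculations used Python 3.11.15 with pandas 2.3.3 and numpy 2.4.6. The scaling and depth steps were tested on simulated data with 1 draw per group, so the combining of libraries was not simulated.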

Additional observations from a re-analysis of the deposited data

How the results depend on the processing

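Of 51 alternative values, 37 stayed close to the reported ones (a count or sum within 1.5 times, a median within 0.1 log2). Some of these could not move, so the count is no measure of robustness. The scalings leave control sums as they are, calls keep the authors' q under scaling, and the filters on mean FPKM kept all 9 genes. Neither scaling changed the side of control on which any of the 9 genes stood: median ratio scaling divided treated and recovery values by 0.973 and 0.971 and upper quartile scaling by 0.951 and 0.963. Under either scaling SDC4 passed 1.5-fold in recovery (1.52 and 1.53). At q under 0.01 no gene was left, so the called members in treated cells, the called list genes in treated cells and those in recovery were each 0, since the lowest q in the table is 0.0147; at q under 0.10 the list genes called in treated cells were 2, with FGFR3 added. The treated median log2 change was 0.71 with a pseudocount of 0.1 FPKM and 0.69 with 0.5 FPKM. Without each group's highest gene, which is SDC2 in control but SDC4 in the others, the syndecan sums were 37.0, 56.9 and 48.6 FPKM in the control, treated and recovery groups, and so cover different genes; without SDC4 throughout, chosen after seeing the data, they were 48.5, 56.9 and 48.6 FPKM. Without GPC3, the highest in each group, the glypican sums, which also leave out GPC5, were 18.3, 23.6 and 18.2 FPKM. No paired analysis was possible because the tables hold 1 value per group, and for the same reason no library could be left out. Depth limits low genes such as GPC2 the most, above all in recovery, which by the estimate from the commonest ratio had 0.652 times the control fragments.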

Other observations

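Growth factors, morphogens and receptors that bind heparan sulfate had 31 of 36 listed genes in the table, with 0 calls in treated cells and 1 in recovery. SLIT2, an axon guidance ligand that binds heparan sulfate and GPC1, fell from 34.9 FPKM without drug to 8.57 FPKM after withdrawal (q = 0.0147 in the authors' deposited table) and was at 15.6 FPKM in treated cells (q = 0.278). HBEGF, the heparin-binding ligand of the EGF receptor, had the highest ratios of the list among genes of 1 FPKM or more in every group, 4.12 and 4.43, from 1.54 FPKM in control, without a call. FGF2, a ligand that needs heparan sulfate to bind its receptor, had the lowest treated ratio with that limit (0.434). NOG, a BMP antagonist under the limit, was at 0.657, 4.06 and 11.4 FPKM, ratios of 6.18 and 17.4 without a call. FGFR3 was at 10.4, 31.6 and 14.9 FPKM in the control, treated and recovery groups, with q = 0.0953 for treated in the authors' deposited table, and SHH was at 0, 0.713 and 3.30 FPKM, with q = 0.0520 for recovery; NOG, FGFR3 and SHH were named after their values were seen.

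Chondroitin sulfate, the other chain that syndecans can carry, is built on the same linkage sugars. Of its 15 genes 0 were called in either comparison, and the list's median log2 change was 0.53 in treated cells and 0.47 in recovery. CHPF2, a chondroitin polymerising factor, was at 5.14, 93.9 and 13.6 FPKM in the control, treated and recovery groups, ratios of 18.3 and 2.65. The treated ratio was the highest of any list gene of 1 FPKM or more in every group, while its q in the authors' deposited table was 0.880 for treated and 0.747 for recovery. With the same limit CHPF had the lowest treated ratio of its list (0.625) and CHSY1 the lowest in recovery (0.653).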
